A study of Mus musculus with 8 samples.

Results

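The 9 genes described here act in blood clotting and in the dissolution of clots: *Vwf*, *Mmrn1*, *Thbd*, *F8*, *Procr*, *Tfpi*, *Plat*, *Pros1* and *F2r*. They were taken by symbol, as every probe set whose annotation gives only that gene, which gave 15 of the 45101 probe sets on the array and 9 of the 18193 genes named there. The arrays measured RNA of lymphatic endothelial cells (LEC, the lining of vessels that return tissue fluid) and blood vascular endothelial cells (BEC, the lining of arteries, capillaries and veins) from the colon of C57BL/6J mice. All 4 animals were 8 weeks old, healthy and untreated, 3 of them female and 1 male (mouse 4), and each gave 1 LEC and 1 BEC array. Antibodies to podoplanin, CD31 and CD45.2 separated the cells in a flow cytometer, and the pairs were selected for the quality of their amplified RNA, so they are not a random draw of animals.

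Clotting starts when tissue factor meets factor VII and ends with thrombin, which cuts fibrinogen to fibrin and activates platelets through protease-activated receptors. Healthy endothelium holds this in check: tissue factor pathway inhibitor (*Tfpi*) blocks the first steps, thrombomodulin (*Thbd*) turns thrombin into an activator of protein C, the endothelial protein C receptor (*Procr*) presents protein C, and protein S (*Pros1*) is the cofactor of the activated form. Von Willebrand factor (*Vwf*) is stored in Weibel-Palade bodies of endothelial cells, tethers platelets to the vessel wall and carries factor VIII (*F8*) in plasma. Tissue plasminogen activator (*Plat*) starts the removal of fibrin. Lymph contains clotting factors but no platelets under normal conditions.

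The labels were checked against defining genes. Of 5 measured LEC markers (*Prox1*, *Lyve1*, *Flt4*, *Pdpn* and *Reln*) 5 were called higher in LEC, and of 6 BEC markers (*Flt1*, *Nrp1*, *Cd34*, *Emcn*, *Plvap* and *Aplnr*) 5 were called lower, and *Emcn* was not. Podoplanin (*Pdpn*), used in the sort, averaged 12.24 ± 0.07 on the LEC and 3.39 ± 0.59 on the BEC arrays (log2 signal, SD, n = 4 per cell type), and CD31 (*Pecam1*) was at 11.49 ± 0.60 and 12.10 ± 0.44, a difference that was not called (limma, adjusted p = 0.477). CD45 (*Ptprc*) was above background on 1 of 4 LEC and 2 of 4 BEC arrays. The array of LEC replicate 1 stood apart, with a median Spearman correlation of 0.541 to the other LEC arrays against 0.697 to 0.702 for the rest. Every signal below is a log2 value, background is the level reached by bacterial control probe sets (3.43 to 4.88 depending on the array), and "called" means an adjusted p under 0.05 in limma, a linear model run on 28838 probe sets. The 19 alternative settings mentioned below vary the scaling, the filter, the test and the arrays used.

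Among the 9 genes, *Mmrn1* was the single one called higher in LEC and *Vwf* the single one called lower, while 7 were not called. Over all 13259 genes tested 3.80% were called, 1.66% higher and 2.14% lower in LEC. The gap between the groups was 7.16 log2 units for *Mmrn1* and 5.51 for *Vwf*. The SD within the dimmer cell type was 1.22 for *Mmrn1* (BEC) and 1.85 for *Vwf* (LEC). By their brightest probe sets, *Tfpi*, *Pros1* and *F2r* had higher values in LEC in 4 of 4 mice and *Thbd* lower values in 4 of 4. These differences were 2.06-fold to 4.04-fold, and none of these 4 genes passed the threshold. The further probe sets of *Tfpi* were higher in LEC in only 2 or 3 of 4 mice. *Procr* and *Plat* were lower in LEC in 3 of 4 mice and spread widely among LEC arrays, and *F8* lay at background. The groups did not overlap for 4 of the 9 genes, against 10.4% of all genes tested. The 9 genes were chosen with earlier results of these data known, so these shares are a description only. Of the 14 probe sets of these genes that could be tested, 2 were called higher and 1 lower, against 1.47% and 1.84% of all 28838 probe sets (3.31% in either direction), and for 5 of the 14 the groups did not overlap, against 9.22%. Both counts include the dimmer *Mmrn1* probe set, which passed the filter through the LEC arrays alone, so they are given as a description.

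**Figure D1:**
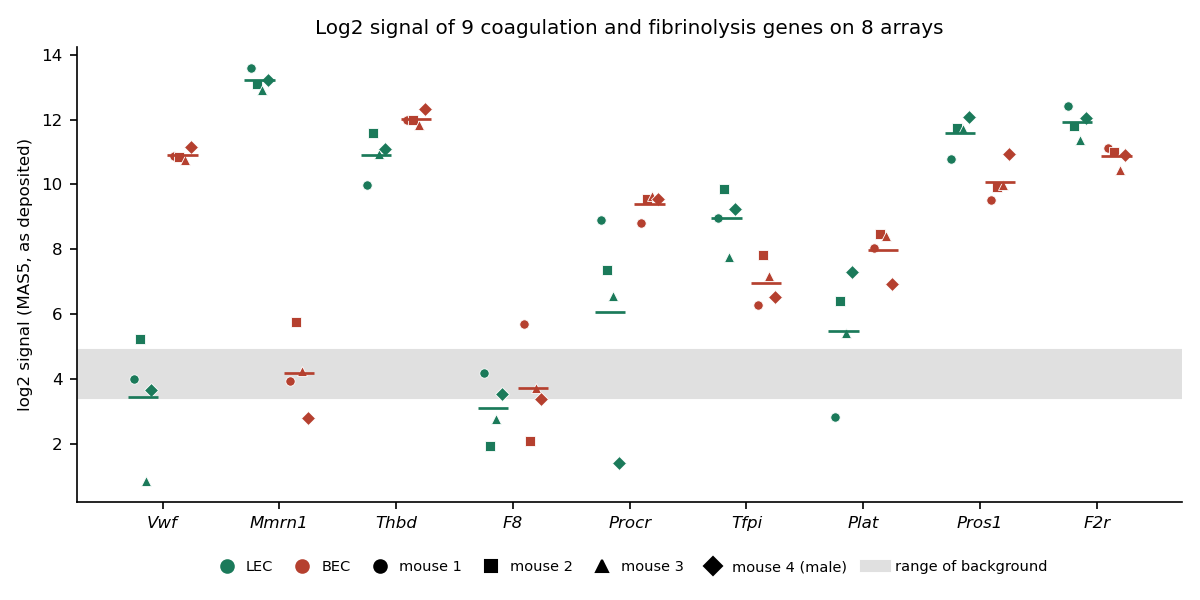
Log2 signal (vertical axis) of the brightest probe set of each of 9 genes (horizontal axis) on 4 LEC and 4 BEC arrays. Symbols mark the mouse, short lines the group means, and the grey band the range of the background level over the arrays (3.43 to 4.88). For *Vwf* and *Mmrn1* the groups lie apart. The dimmer group was above background on 1 of 4 LEC arrays for *Vwf* and on 2 of 4 BEC arrays for *Mmrn1*. *F8* lies around background in both groups.

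Von Willebrand factor is a large multimeric protein, and its mRNA is a common marker of blood endothelium. *Vwf* (probe set 1435386_at, the only one) read 10.89, 10.86, 10.75 and 11.14 in BEC of mice 1 to 4, an SD of 0.17. The same probe set read 3.99, 5.24, 0.85 and 3.66 in LEC. All 4 BEC arrays were bright and nearly equal, whereas 1 of 4 LEC arrays, that of mouse 2, was above background. With LEC values raised to background the ratio was at least 85.7-fold lower in LEC, and the fitted difference was -7.47 ± 0.82 (LEC minus BEC, log2, ± standard error, adjusted p = 1.30e-04). It was called under all 19 alternative settings. The lowest BEC value stood 5.51 log2 units above the highest LEC value.

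Multimerin 1 is a secreted multimeric glycoprotein that binds factor V and is stored in platelets and endothelial cells. *Mmrn1* (1437260_at) read 13.60, 13.12, 12.91 and 13.21 in LEC of mice 1 to 4. In BEC it read 3.95, 5.75, 4.25 and 2.79, above background in mice 2 and 3. The LEC arrays were thus uniformly bright, and the gap between the groups was 7.16. LEC were at least 422-fold higher, with a fitted difference of 9.02 ± 0.59 (adjusted p = 2.97e-06), and the bound ran from 331-fold without BEC replicate 4 to 565-fold without BEC replicate 2. A second probe set (1430621_at) gave 9.39, 7.74, 7.79 and 7.87 in LEC and -1.07 to 2.91 in BEC, where it was below background on every array. It was at least 22.6-fold higher in LEC (difference 6.50 ± 0.97, adjusted p = 0.00141). That probe set entered the test through the 4 LEC arrays alone, so it could only be tested because it was high there. Both probe sets placed the gene on the same side, and it was called under every alternative (19 for the brighter and 18 for the dimmer one).

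Platelets also hold VWF and multimerin 1, so platelet and megakaryocyte genes were read on the same arrays. Of 10 such genes with a probe set, 1 to 6 were above background on each LEC array and 0 to 6 on each BEC array. *Itga2b* and *Gp5*, which encode platelet adhesion receptors, were above it on none of the 8 arrays. Of the 4 that could be tested (*Gp1bb*, *Pf4*, *Clec1b* and *Tubb1*) 0 were called, with a median difference of 1.01. The summed signal of all 10 ran from 6.80 to 9.25 (log2 of the sum) in LEC and from 5.42 to 7.39 in BEC. Its highest value, in LEC of mouse 3, came with *Ppbp*, a platelet chemokine gene named after its values were seen, which read 8.66 there and -0.23 to 4.66 on the other arrays. *Pf4*, platelet factor 4, was at 5.09 ± 0.89 in LEC and 3.97 ± 1.29 in BEC. The part of platelet RNA in the *Vwf* and *Mmrn1* values was not tested. Of 8 pericyte and smooth muscle genes 5 were tested, 1 was called lower in LEC and 4 were not called, with a median difference of -2.15. The called one was the pericyte gene *Rgs5* (9.59 ± 0.50 in BEC, 3.53 ± 3.02 in LEC, adjusted p = 0.00909). The summed signal of the 8, in which *Rgs5* was the brightest gene in BEC, was 9.70 to 10.57 in BEC and 6.98 to 8.20 in LEC. Their part in the genes that were lower in LEC was not tested. In sorted bulk samples fewer cells of a type and less RNA per cell cannot be told apart.

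Factor VIII is the cofactor that speeds the activation of factor X and travels in blood bound to VWF. *F8* (1449558_at) read 4.20, 1.93, 2.76 and 3.52 in LEC and 5.69, 2.08, 3.72 and 3.39 in BEC. It was above background on 0 of 4 LEC arrays and on 2 of 4 BEC arrays, those of mice 1 and 3. The groups overlapped, and the difference was -0.62 with a 95% interval of -2.88 to 1.64 (adjusted p = 0.872). The interval spans differences of either sign, and no fold is given.

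**Figure D2:**
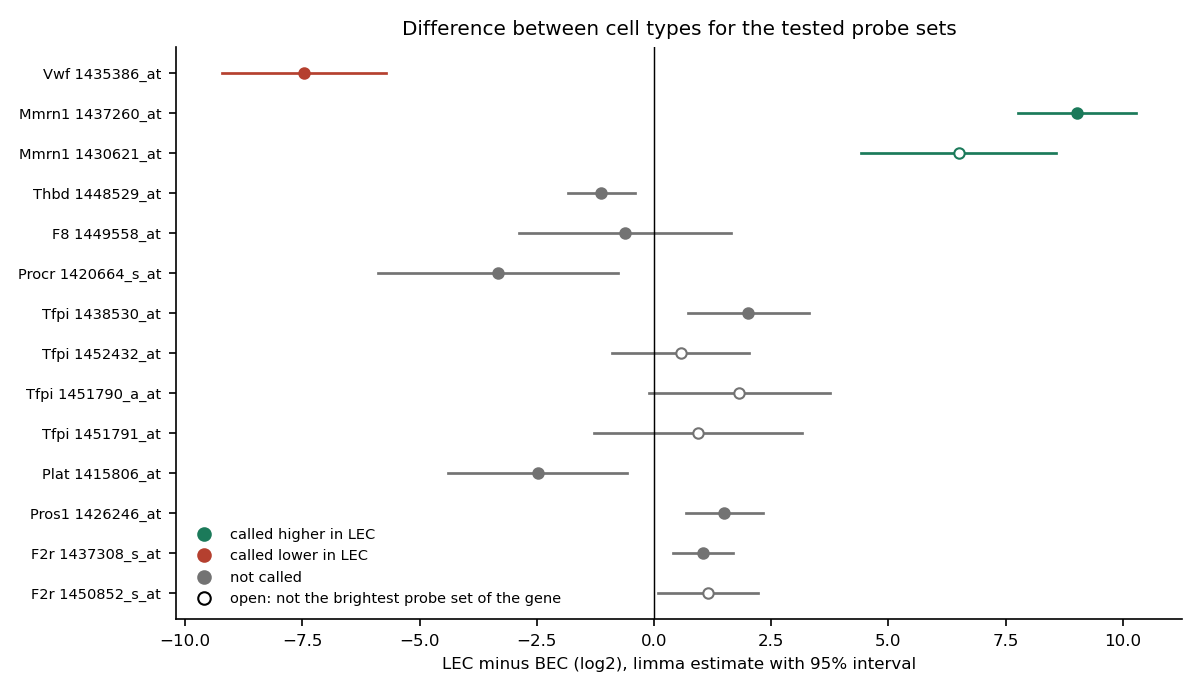
Fitted difference LEC minus BEC (log2, horizontal axis) with its 95% interval for the 14 probe sets that could be tested (vertical axis). Filled points are the brightest probe set of a gene, open points further probe sets of the same gene. The interval of *Vwf* runs from -9.23 to -5.72 and that of *Mmrn1* 1437260_at from 7.76 to 10.29, while the 11 grey probe sets were not called.

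In the protein C system, in which thrombin on the cell surface limits its own formation, none of *Thbd*, *Procr* and *Pros1* was called. Thrombomodulin (*Thbd*, 1448529_at) was bright everywhere, at 11.98, 11.99, 11.82 and 12.33 in BEC and 10.00, 11.60, 10.93 and 11.10 in LEC. Every LEC value lay below every BEC value, by a gap of only 0.23, and the within-mouse differences ran from -1.98 in mouse 1 to -0.39 in mouse 2. The fitted difference of -1.12 ± 0.33 corresponds to 2.18-fold (adjusted p = 0.0984), and 0 of 19 alternatives called it, with adjusted p between 0.0543 and 0.453. The group means were 10.91 ± 0.67 in LEC and 12.03 ± 0.21 in BEC.

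The protein C receptor gene *Procr* (1420664_s_at) read 8.81, 9.55, 9.63 and 9.56 in BEC. In LEC it read 8.90, 7.36, 6.56 and 1.40, from the level of BEC in mouse 1 to below background in mouse 4. The groups overlapped through mouse 1, whose LEC array stood 0.08 above its BEC array. The difference was -3.34 ± 1.19 (95% interval -5.89 to -0.78, adjusted p = 0.203). It was -1.78 without LEC replicate 4, and the gene was called under 1 of 19 alternatives, in which values were raised to background (-2.68, adjusted p = 0.0366). An ending of _s_at marks probes that can match more than 1 gene, which applies to *Procr* and to both probe sets of *F2r*.

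Protein S, the vitamin K-dependent cofactor of activated protein C and of TFPI, had higher values in LEC in each mouse. *Pros1* (1426246_at) read 10.79, 11.76, 11.70 and 12.09 in LEC and 9.52, 9.92, 9.97 and 10.93 in BEC. Mouse 4 had the highest value in both cell types and mouse 1 the lowest, so the groups overlapped although LEC was higher within each mouse, by 1.27, 1.84, 1.73 and 1.16. The difference was 1.50 ± 0.38, or 2.83-fold, and missed the threshold at adjusted p = 0.0501. With the mouse as a block it was called (adjusted p = 0.0135), and 8 of 19 alternatives called it in all. Its adjusted p was 0.309 with equal array medians (difference 1.22) and 0.522 with equal hybridisation controls (1.11).

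The thrombin receptor PAR1, encoded by *F2r*, is activated when thrombin cuts its extracellular end. *F2r* (1437308_s_at) read 12.41, 11.82, 11.37 and 12.06 in LEC and 11.12, 10.999, 10.46 and 10.92 in BEC. The groups did not overlap, by 0.25, and the within-mouse differences of 0.82 to 1.28 were alike in size. The difference was 1.04 ± 0.30, or 2.06-fold (adjusted p = 0.0841, and 0.0294 with the mouse as a block). Without LEC replicate 3 it was also called (adjusted p = 0.0499), and the remaining 17 alternatives did not call it. The second probe set (1450852_s_at) read 9.32, 9.60, 8.62 and 9.61 in LEC and 7.57, 8.15, 7.76 and 9.07 in BEC, with overlap through mouse 4 in BEC. It gave 1.15 ± 0.49 (adjusted p = 0.327) and was higher in LEC in 4 of 4 mice.

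**Figure D3:**
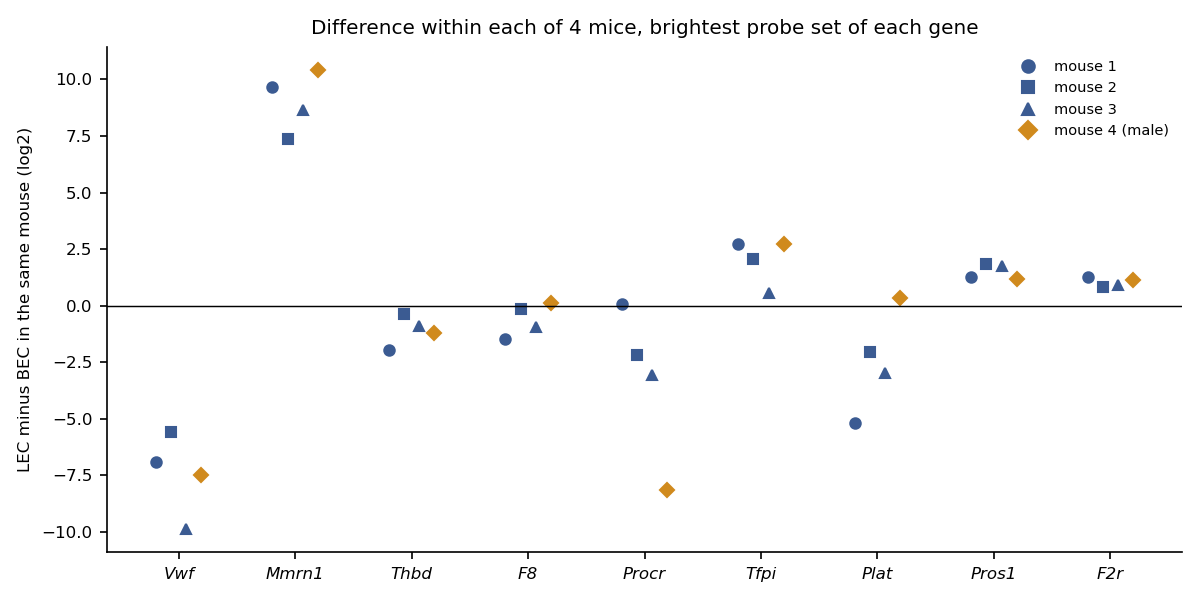
Difference LEC minus BEC within each of the 4 mice (log2, vertical axis) for the brightest probe set of each gene (horizontal axis), with the male mouse in orange. *Pros1* lies between 1.16 and 1.84 and *F2r* between 0.82 and 1.28 in all 4 mice, whereas *Procr* runs from 0.08 to -8.16.

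The sequence just before the start site was available for 6 of the 9 genes (7 start sites, RefSeq annotation of GRCm38.p6). It is shown for *Mmrn1*, *Pros1* and *F2r*, which had higher LEC values in every mouse and a single start site in the table, and for *Procr*, whose LEC values had the largest SD of the 9 genes (3.25). Each line gives 250 bases 5′ to 3′ on the strand of the gene, ending at the base before the start, with capitals marking a match to any of 6 short motifs on either strand. The motifs were CGGAAG for ETS factors, AGATAA for factors of the GATA family, AGGTCA for nuclear receptors, CCACCC for KLF factors, TATAAA known as the TATA box, and TGACTCA for AP-1. The windows were chr6:60944067-60944316 on the plus strand for *Mmrn1*, chr16:62854057-62854306 on the plus strand for *Pros1*, chr13:95618467-95618716 on the minus strand for *F2r* and chr2:155750967-155751216 on the plus strand for *Procr*.
Mmrn1: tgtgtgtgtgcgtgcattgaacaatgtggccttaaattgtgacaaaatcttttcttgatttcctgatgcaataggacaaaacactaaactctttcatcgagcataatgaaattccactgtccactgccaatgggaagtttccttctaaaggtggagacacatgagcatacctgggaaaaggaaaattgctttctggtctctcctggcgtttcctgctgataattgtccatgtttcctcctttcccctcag
Pros1: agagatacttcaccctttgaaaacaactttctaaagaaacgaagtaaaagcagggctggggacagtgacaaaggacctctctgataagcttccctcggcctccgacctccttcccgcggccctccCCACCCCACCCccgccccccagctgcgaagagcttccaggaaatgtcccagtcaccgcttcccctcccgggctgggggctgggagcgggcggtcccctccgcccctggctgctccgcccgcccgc
F2r: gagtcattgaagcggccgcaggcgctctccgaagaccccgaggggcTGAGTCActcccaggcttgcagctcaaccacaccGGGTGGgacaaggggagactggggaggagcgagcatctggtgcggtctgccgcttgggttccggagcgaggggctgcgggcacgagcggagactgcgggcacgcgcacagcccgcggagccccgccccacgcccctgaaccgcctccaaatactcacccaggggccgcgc
Procr: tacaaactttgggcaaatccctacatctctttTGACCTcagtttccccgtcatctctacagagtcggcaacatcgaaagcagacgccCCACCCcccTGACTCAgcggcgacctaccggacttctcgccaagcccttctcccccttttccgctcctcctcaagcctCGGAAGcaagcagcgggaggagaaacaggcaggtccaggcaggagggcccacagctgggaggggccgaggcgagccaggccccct

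The window of *Mmrn1* held 42.4% G and C and none of the 6 motifs. Those of *Pros1* and *F2r* held 64.4% and 70.8% G and C, with 2 overlapping KLF matches in *Pros1* and 1 KLF and 1 AP-1 match in *F2r*. The windows of *Tfpi*, which has 2 start sites, are not printed. Its brightest probe set also read higher in LEC in every mouse, unlike its other probe sets. The window of start site 1 held 1 TATA box match and that of start site 2 held 1 GATA match. The window of *Procr*, at 61.6% G and C, held 1 match each to the ETS, nuclear receptor, KLF and AP-1 motifs. Over 32851 start sites the same length of sequence held the KLF motif in 28.1%, the nuclear receptor motif in 14.0%, the ETS motif in 13.6%, the TATA box in 12.4%, the GATA motif in 9.99% and the AP-1 motif in 4.46%. A match is a run of letters and not a site of binding.

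Tissue factor pathway inhibitor is made by endothelium and stops the complex of tissue factor, factor VII and factor X. Its brightest probe set (1438530_at) read 8.98, 9.87, 7.76 and 9.24 in LEC and 6.27, 7.81, 7.19 and 6.52 in BEC. LEC was higher in each mouse, by 0.57 in mouse 3 and by 2.05 to 2.72 in mice 1, 2 and 4, and the groups overlapped only in that the LEC value of mouse 3 lay below the BEC value of mouse 2. The difference of 2.01 ± 0.60 (4.04-fold, 95% interval 0.72 to 3.31) was not called (adjusted p = 0.103, and 0.0516 to 0.431 over the alternatives).

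The other 3 probe sets of *Tfpi* gave smaller and less regular differences. Probe set 1451790_a_at read 9.16, 8.95, 7.09 and 8.80 in LEC and 4.17, 8.11, 8.56 and 5.88 in BEC, a difference of 1.82 ± 0.90 (adjusted p = 0.421) that was negative in mouse 3. Probe set 1451791_at read 4.56 in LEC of mouse 3 and 6.87 to 7.08 in LEC of the other mice, and 2.38, 5.46, 6.60 and 7.31 in BEC. It differed by 0.94 ± 1.04 (adjusted p = 0.776) and was higher in LEC in 2 of 4 mice. Probe set 1452432_at differed least, by 0.57 ± 0.68 (adjusted p = 0.801), with LEC of mouse 4 at 10.03 and the other 7 arrays between 6.80 and 8.06. All 4 probe sets had their lowest LEC value in mouse 3. Single arrays set the sign of the last 2: 1451791_at differed by -0.08 without BEC replicate 1 and 1452432_at by -0.09 without LEC replicate 4, while 1451790_a_at differed by 0.98 without BEC replicate 1.

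**Figure D4:**
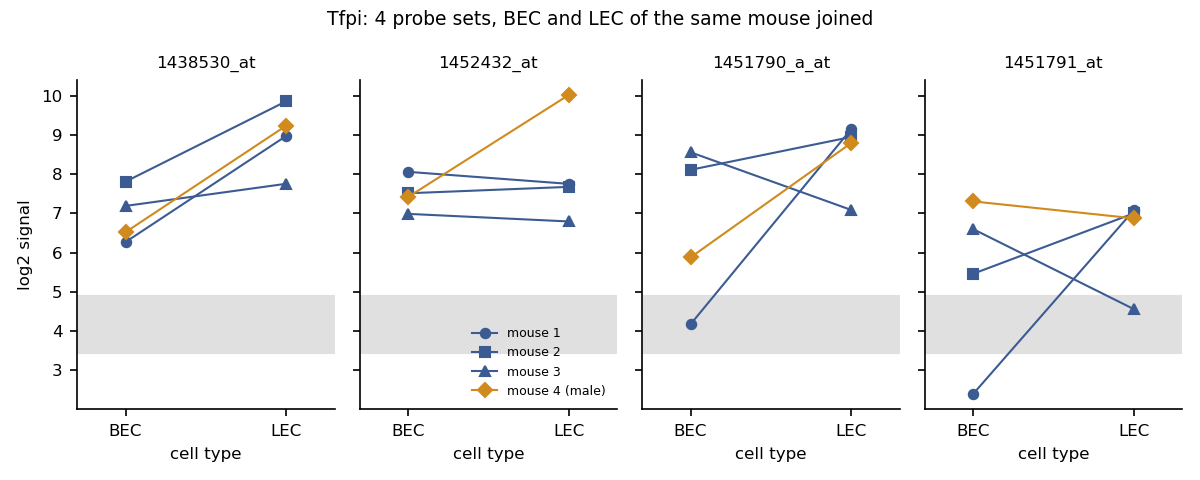
Log2 signal (vertical axis) of the 4 probe sets of *Tfpi* in BEC and LEC (horizontal axis), with lines joining the arrays of 1 mouse and the grey band giving the range of background. In 1438530_at the LEC end of all 4 lines lies above the BEC end, by 0.57 to 2.72, and in the other panels lines of both slopes occur.

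Fibroblast and epithelial genes varied among the arrays on which *Pros1*, *F2r* and *Tfpi* were read. The summed signal of 6 fibroblast genes was 12.61 and 12.09 in LEC of mice 2 and 4, 8.35 and 9.09 in LEC of mice 1 and 3, and 7.17 to 8.54 in BEC. In mice 1 and 3 the difference was 1.27 and 1.73 for *Pros1* and 1.28 and 0.91 for *F2r*, against 1.84 and 1.16 and then 0.82 and 1.14 in mice 2 and 4. For the brightest probe set of *Tfpi* it was 2.71 and 0.57 in mice 1 and 3, against 2.05 and 2.72 in mice 2 and 4. The part of the fibroblast signal in these 3 genes was not tested. The summed signal of 7 epithelial genes was 13.03 in LEC of mouse 3, 13.69 in BEC of mouse 3 and 12.40 in BEC of mouse 4, and 7.86 to 8.81 on the other arrays. Its part in the low *Tfpi* values of LEC from mouse 3 was not tested. Leukocyte genes, at a summed signal of 6.54 to 7.91 in LEC and 6.15 to 8.05 in BEC, did not separate the groups.

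Tissue plasminogen activator cuts plasminogen to plasmin on fibrin. *Plat* (1415806_at) read 8.03, 8.47, 8.41 and 6.95 in BEC and 2.82, 6.40, 5.42 and 7.29 in LEC. The difference LEC minus BEC was -5.22, -2.08 and -2.99 in mice 1 to 3 and 0.34 in mouse 4, so the groups overlapped. The difference was -2.48 ± 0.89 (95% interval -4.39 to -0.58, adjusted p = 0.203), and 0 of 19 alternatives called it. It was -1.60 without LEC replicate 1 and -3.43 without mouse 4. With the LEC value of mouse 1, which was below background, raised to that level, LEC was at least 3.91-fold lower. A second probe set (1458553_at), at -0.74 to 1.98 in LEC and 2.24 to 4.43 in BEC, was above background on 1 of 8 arrays and was too dim to test. Enteric neurons can also express this gene. Of 4 neuronal and glial genes measured, 1 to 2 were above background on each LEC array and 1 to 3 on each BEC array. *Elavl4* was above background on no array. Of the 2 that could be tested 0 were called, and the summed signal of the 4 was 5.97 to 7.83 in LEC and 5.55 to 6.88 in BEC. Their part in the *Plat* values was not tested.

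Outside the 9 genes, 65 further genes of haemostasis were followed as a list. Passing the filter for testing did not require signal above background. Of the list, 58 had a probe set named for them alone and 39 passed the filter and were tested. Of these, 1 was higher and 4 were lower in LEC, 34 were not called, and the median difference was 0.04 against 0.08 over all 13259 genes, of which 1.66% were called higher and 2.14% lower. The groups did not overlap for 11 of the 39, against 10.4% of all genes. This list too was chosen with earlier results of these data known, so the shares are a description only.

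Among procoagulant genes 10 of 20 could be tested and 0 were called (median -0.82), against 1.66% higher and 2.14% lower among all genes. The lowest adjusted p-values among them belonged to genes named after their values were seen. *Ano6*, a scramblase that exposes the phosphatidylserine on which clotting factors assemble, was 10.28 ± 0.34 in LEC and 11.48 ± 0.35 in BEC and lower in LEC in 4 of 4 mice without overlap (difference -1.19 ± 0.31, adjusted p = 0.0575). It was called with the mouse as a block (adjusted p = 0.0367) and in 7 of 19 alternatives in all. *Vkorc1*, which recycles vitamin K for the clotting factors, was 7.93 ± 1.27 in LEC and 10.04 ± 0.11 in BEC (difference -2.11 ± 0.58, adjusted p = 0.0696) and was called in 3 of 19. The factor genes *F2*, *F7*, *F9* and *F11*, mostly expressed by liver, and the tissue factor gene *F3* were too dim to test. *F3*, named here after its values were seen because tissue factor starts clotting, was above background on 2 of 4 LEC arrays, at 5.77 in mouse 1 and 6.00 in mouse 3, and on 1 of 4 BEC arrays, at 3.46 in mouse 4. Of 11 measured anticoagulant genes 8 were tested, 1 was called higher and 0 lower, against 1.66% and 2.14% of all genes. The called one was *Serping1*, which encodes C1 inhibitor, a serpin that blocks complement proteases, plasma kallikrein and factor XIIa. It read 10.87, 11.08, 9.83 and 10.56 in LEC and 6.62, 6.67, 6.57 and 5.87 in BEC, bright in the first group and above background in the second. The difference was 4.15 ± 0.48, or 17.8-fold (adjusted p = 2.05e-04), and all 19 alternatives called it.

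Of 10 measured genes of fibrinolysis 7 were tested, 0 were called higher and 1 lower (median 1.07), against 1.66% and 2.14% of all genes. The lower one was *Thbs1*, thrombospondin 1, an adhesive matrix protein of platelets and vessel walls, at 7.29 ± 1.23 in LEC and 9.96 ± 0.76 in BEC (difference -2.67 ± 0.64, adjusted p = 0.0339). It lost the call in 8 of 19 alternatives, among them the omission of LEC replicate 2, 3 or 4 or of BEC replicate 1, 2 or 3 (adjusted p = 0.0509 to 0.135), and its second probe set was not called (-1.79, adjusted p = 0.417). The urokinase gene *Plau*, named after its values were seen because it encodes the other main plasminogen activator beside *Plat*, was 10.01 ± 0.86 in LEC and 8.06 ± 0.84 in BEC and higher in LEC in 4 of 4 mice. Its difference of 1.96 ± 0.56 was not called (adjusted p = 0.0827), but it was with the mouse as a block (adjusted p = 0.0270). Of the other protease-activated receptors, *F2rl3* was tested and not called (-2.47 ± 1.22, adjusted p = 0.418).

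Genes tied to the storage, release and clearance of VWF held 3 of the 4 lower genes. Of 13 tested, 0 were higher and 3 lower in LEC, with a median of -0.26, against 1.66% higher and 2.14% lower among all genes. P-selectin (*Selp*), the leukocyte adhesion receptor kept with VWF in Weibel-Palade bodies, read 6.95, 7.36, 8.12 and 7.19 in BEC and 1.68 to 4.64 in LEC, where it was below background on all 4 arrays. By that bound LEC fell short of BEC by a factor of 8.84 or more (adjusted p = 0.00843), and the call was lost with the male mouse left out (adjusted p = 0.0636). *Myrip*, whose product links the granule protein RAB27A to myosin, averaged 9.77 ± 0.68 on BEC arrays against 4.51 ± 0.86 on LEC arrays, which makes it at least 29.4-fold lower there (adjusted p = 3.20e-04). The endothelin 1 gene *Edn1* stood at 8.74 ± 0.22 and 5.09 ± 0.62 in BEC and LEC, a drop of at least 11.2-fold (adjusted p = 0.00263). *Rab27a* itself differed by 0.04 ± 1.11 (adjusted p = 0.993) and *Angpt2*, a ligand also stored in these granules, by -0.09 ± 0.64 (adjusted p = 0.975), both named after their values were seen. The part of the pericyte signal in BEC in these values was not tested. *Mmrn2*, the related endothelial multimerin, was 10.17 in LEC and 10.43 in BEC (difference -0.26 ± 0.42, adjusted p = 0.869).

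**Figure D5:**
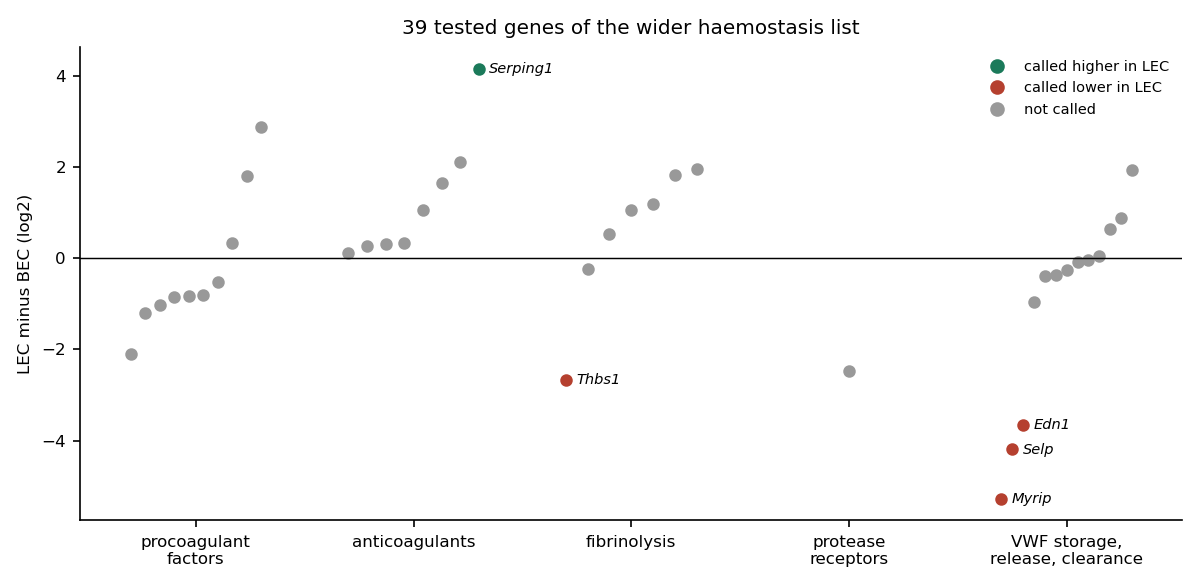
Fitted difference LEC minus BEC (log2, vertical axis) of the 39 tested genes of the haemostasis list, grouped by role (horizontal axis) and ordered by size within each group. *Serping1* (4.15) is the 1 gene called higher, and *Myrip* (-5.26), *Selp* (-4.19), *Edn1* (-3.65) and *Thbs1* (-2.67) are the 4 called lower.

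Patterns over the 8 arrays were also set against those of all other named genes by Pearson correlation, as a description only, over 8 arrays that fall into 2 groups and with 13259 genes to choose from. The closest gene to *Vwf* was *Snai2* (r = 0.992), the closest to *Mmrn1* was *Lcn2* (r = 0.997), and the closest to *Thbd* was *Unc45b* (r = 0.970). *Pros1* came nearest to *Rarres2* (r = 0.970), *F2r* to *Esyt2* (r = 0.977) and *Tfpi* to *AW011738* (r = 0.967). For the genes that vary within LEC, *Procr* came nearest to *Rnf113a2* (r = 0.988) and *Plat* to *Chst11* (r = 0.986), while *F8* came nearest to *Nrn1* (r = 0.941). The arrays of each pair share a mouse and those of each group a sort gate.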

How the data were processed

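RNA was amplified from sorted cells with primers at the poly(A) sequence and along transcripts, labelled with biotin and hybridised to 1 single-colour array per sample, per the labels' protocols. The deposited table holds log2 values, made with MAS5 per the submitters' processing notes (version and genome build not given in the sources used here). The 2% trimmed mean of the linear signal was 100.04 on all 8 arrays, so each array had been scaled to the same total, which assumes equal total signal in both cell types; array medians ran from 3.85 to 4.75. Detection calls were not used here.

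Of 45101 probe sets 64 controls were left out. Names came from the platform annotation, updated by gene number to RefSeq symbols: 34945 probe sets had 1 gene, 932 several and 9160 none, and the last 2 kinds name no gene. Probe sets above the 40th percentile of the array on at least 4 arrays (28838) were given to limma 3.58.1 under R 4.3.3 (lmFit, eBayes with an intensity trend, cell type as the only term, 6 residual and 7.68 prior degrees of freedom). Two-sided p-values carry the Benjamini-Hochberg adjustment over those 28838. A gene is read through its brightest probe set, by the mean of all 8 arrays. Intervals are those of single probe sets, with no adjustment. The fit was tested on simulated data. A gene that was not called may still differ between the cell types.

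On each array, background is the 95th percentile of the signals of 27 *Bacillus subtilis* controls. Where the dimmer group had an array below it, values there were raised to it and the ratio is written "at least". Summed marker signals are log2 of the summed linear signals of the brightest probe sets.

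LEC and BEC of a number come from the same mouse, per the series design. Deviations from the group means correlated within mice 1 to 4 at 0.141, 0.0795, 0.149 and 0.0524. The highest correlation with the other cell type of another mouse was 0.0195, 0.0195, 0.0561 and 0.0561. For mouse 4 it exceeded the correlation within the mouse. Spread between animals, amplification and arrays enters the p-values as one.

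Named are the 9 genes, called genes of the haemostasis list, the sort antigens, cell type markers and, for each of the 9 genes, the gene of highest correlation. The members and lists were chosen with earlier results of these data known. Alternatives were scaling (equal medians, quantile, equal hybridisation controls, the last added after seeing the data), filter (none, 60th percentile), a pseudocount of 16, values raised to background, the mouse as a block, no trend, 1 probe set a gene, and leaving out each array or mouse 4.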

Additional observations from a re-analysis of the deposited data

Results flagged for a closer look

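Of the 30 groups of 4 values (15 probe sets in 2 cell types), 4 held an array far from the other 3 by Dixon's test, which chance does in about 1 of 20 groups. *Mmrn1* 1430621_at stood high in LEC replicate 1 (9.39 against 7.74 to 7.87) and low in BEC replicate 4 (-1.07 against 2.41 to 2.91, all below background). *Procr* was low in BEC replicate 1 (8.81 against 9.55 to 9.63), and *Tfpi* 1451791_at was low in LEC replicate 3 (4.56 against 6.87 to 7.08). In the male mouse the difference LEC minus BEC had the opposite sign to that of the 3 female mice for *Plat* 1415806_at (0.34 against -5.22 to -2.08) and for *F8* (0.13 against -1.49 to -0.15, with 6 of 8 arrays below background). This rests on 1 male animal, and the difference between the sexes was not tested.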

How the results depend on the processing

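*Vwf* and both probe sets of *Mmrn1* were called in the same direction under every alternative run (19, 19 and 18), and no alternative called any of the 15 probe sets in the opposite direction. With background at the highest control the bound for *Vwf* was 70.4-fold and that for *Mmrn1* 358-fold. The count of the 9 genes called higher in LEC went from 1 to 2 with quantile normalization, the stricter filter, the pseudocount, values raised to background or 1 probe set a gene, in each case by *Pros1*, and to 3 with the mouse as a replicate block, by *Pros1* and *F2r*. Leaving out arrays gave 1 to 2 higher and 1 to 1 lower. The count lower in LEC was 2 with values raised to background, by *Procr*. In the haemostasis list 2 genes were higher with values raised to background or with the replicate block, both times by *Plau*. The lower ones numbered 5 with equal medians, quantile normalization, the stricter filter, the replicate block, 1 probe set a gene or equal hybridisation controls, by *Ano6*, and with the pseudocount or values raised to background, by *Vkorc1*, and 3 with no trend. There leaving out arrays gave 1 to 2 higher and 2 to 5 lower, against 1 and 4. Over all probe sets 424 were higher and 530 lower, against 231 and 506 with equal hybridisation controls. Leaving out arrays gave 197 to 393 higher and 261 to 558 lower. A count moved by over 1.5 times without mouse 4 (197 and 261), LEC replicate 4 (280 higher), BEC replicate 2 (318 lower) and BEC replicate 4 (346 lower). *Pros1* was also added without LEC replicate 1 or BEC replicate 4, and *F2r* without LEC replicate 3. *F8*, never called, turned to a positive difference of 0.19 with values raised to background and of 0.04 without BEC replicate 1. *Tfpi* 1452432_at turned to -0.09 without LEC replicate 4 and to -0.11 without mouse 4, and 1451791_at to -0.08 without BEC replicate 1, none of them called. The replicate block changed no other call among the 9 genes. The median difference of all probe sets was 0.11 as deposited, -0.28 with hybridisation controls made equal and -0.17 with array medians made equal, so differences near 1, such as those of *F2r*, *Thbd* and *Pros1*, are relative to the deposited scale. With no array measuring *F8* in LEC above background, signal limits what can be said of it.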
